A study of Mus musculus with 4 samples.

Results

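The genes of the tissue factor and plasminogen system were followed in HL-1 cells, an immortal line of mouse atrial myocytes that contracts on its own in culture. The genes were F3 (tissue factor), Tfpi, Thbd, F2r, Plau, Plat, Plaur, Serpine2 and Thbs1, and every probe set annotated to exactly 1 of these 9 symbols was taken. Of the 9 genes, 8 had such a probe set, with 15 probe sets among the 45101 of the table. No probe set carried the symbol Serpine2 alone in the annotation used, so its expression is not analysed here, only its promoter. One further probe set listed Thbs1 beside another symbol and was left out. The genes were chosen by name with the changes between the same stimulated and control arrays in view. Their values in that comparison are therefore a description and support nothing by themselves.

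All cells were grown to confluence in supplemented Claycomb medium on a gelatin and fibronectin coating. In the stimulated group (2 arrays, numbered experiments 1 and 2) electric pulses drove the cells for 24 h at 300 beats per minute, 1.5 to 2 times the control rate per the labels. In the control group (2 arrays) the cells contracted spontaneously, without electrical stimulation. No group was paced at the control rate, so faster beating and the electric field itself cannot be told apart. Nothing in the labels says that the samples of a group came from separate cultures, so errors and p-values reflect only how these samples differed, perhaps for technical reasons. All 12 listed markers of atrial myocytes, among them Nppa, Myl7, Myh6 and Actc1, lay past the filter level, given with the values, on average. Of these 1 was called higher and 3 lower by limma, beside 3.91% and 1.64% of all genes, with a median difference of -0.61 between stimulated and control cells. At an unadjusted p under 0.05 there were 8 (66.7%, against 25.6% of all genes), and the groups did not overlap in 11 (91.7%, against 55.3%).

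Tissue factor is a membrane protein that binds coagulation factor VII and starts the cascade that ends in thrombin. Tissue factor pathway inhibitor, the product of Tfpi, blocks that first step, and thrombomodulin, the product of Thbd, turns thrombin from a clotting enzyme into an activator of the anticoagulant protein C. Thrombin also signals to cells by cutting the receptor PAR1, which F2r encodes. In the plasminogen branch, the proteases urokinase (Plau) and tissue plasminogen activator (Plat) make plasmin, and the urokinase receptor (Plaur) holds urokinase at the cell surface. Cardiac myocytes are known to express tissue factor, and atrial fibrillation is known for clots that form in the atrium.

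The regions just upstream of F3, Plaur and F2r are shown because all 3 carry the same short motif. They were chosen with the expression values and the motif matches known. Whether the motif has a part in any change was not tested. The sequences are from RefSeq, build GRCm38.p6, and run 5′ to 3′ along the gene's own strand over the 250 bases before the annotated start. They cover chr3:121723287-121723536 on the plus strand for F3, chr7:24462233-24462482 on the plus strand for Plaur and chr13:95618467-95618716 on the minus strand for F2r. Capitals mark matches to the AP-1 motif TGANTCA and to the EGR motif GCGNGGGCG.
F3: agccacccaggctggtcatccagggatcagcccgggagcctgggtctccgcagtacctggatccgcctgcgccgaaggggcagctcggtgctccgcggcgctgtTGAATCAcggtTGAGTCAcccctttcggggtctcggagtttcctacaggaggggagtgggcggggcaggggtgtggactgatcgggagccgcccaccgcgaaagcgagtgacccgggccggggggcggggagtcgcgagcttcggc
Plaur: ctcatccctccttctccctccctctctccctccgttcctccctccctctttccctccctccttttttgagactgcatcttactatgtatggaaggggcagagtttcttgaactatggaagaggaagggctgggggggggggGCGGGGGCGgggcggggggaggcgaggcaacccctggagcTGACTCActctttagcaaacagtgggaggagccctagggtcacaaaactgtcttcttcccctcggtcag
F2r: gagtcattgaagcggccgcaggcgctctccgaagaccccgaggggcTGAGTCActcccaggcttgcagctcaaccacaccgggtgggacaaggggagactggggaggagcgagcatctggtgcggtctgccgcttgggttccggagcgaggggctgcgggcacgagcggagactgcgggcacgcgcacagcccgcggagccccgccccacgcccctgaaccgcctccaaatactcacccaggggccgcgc

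Windows of 300 bases, from 250 before to 50 after the start, were searched on both strands for 6 motifs. These were AP-1 (TGANTCA), CRE (TGACGTCA), the Sp1 GC box (GGGCGG), EGR (GCGNGGGCG), the TATA box (TATAAA) and kappaB (GGGRNNYYCC). Here N is any base, R is A or G, and Y is C or T. The F3 window held AP-1 matches at positions -146 to -140 and -135 to -129 from the start, with 4 bases between them. Among all 32851 promoters of this length, 7.81% held an AP-1 match and 0.46% held 2 or more. The Plaur window held an AP-1 match at -69 to -63 and an EGR match at -109 to -101, which overlaps 2 of its 3 GC boxes. Of all promoters 5.55% held an EGR match and 0.155% held both motifs. The F2r window held an AP-1 match at -204 to -198. GC boxes, present in 35.7% of all promoters, were found in all 5 of the genes with a window (F3, Plaur, F2r, Tfpi and Serpine2). Thbd, Plau, Plat and Thbs1 had no window, so no motif could be searched for in them. Both Tfpi windows lacked AP-1 and EGR matches, and the window of Serpine2 held an EGR match and no AP-1 match. A TATA box match, present in 13.6% of all promoters, was found for F3 (at 44 to 49 after the start, opposite strand) and Tfpi. The exact CRE and kappaB letters searched, in 1.79% and 8.46% of all promoters, were in none of the windows. Sites with other letters were not searched for, so a kappaB or CRE site that departs from these letters could be present. Of combined matches, only the kinds seen in F3 and in Plaur were counted over all promoters, so nothing is read from their low shares. The matches describe letters and not binding, which was not measured.

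Values are log2 probe set levels made with RMA. The 4 arrays had medians of 4.96 to 5.01. Of 18193 genes with a 1-symbol probe set, the brightest probe set stood for each gene, and the 13050 genes with a mean of at least 4.39, the 40th percentile over the whole table, were tested with limma. In that test 510 genes (3.91%) passed an adjusted p of 0.05 as higher in stimulated cells and 214 (1.64%) as lower. The count of 724 dropped to between 20 and 113 when any of the 4 arrays was left out. The number of arrays, 2 a group, limits the precision.

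F3 and Plaur were higher in stimulated cells, by 4.45-fold and 6.22-fold, and were among the 510 genes called higher. Tfpi differed little, and Thbd and F2r had lower values that did not pass the test. Plau, Plat and Thbs1 lay below the filter level. So 2 of the 5 genes tested were called higher and 0 lower, beside 3.91% and 1.64% of all genes. The choice of genes used this comparison, so nothing is read from these shares. At an unadjusted limma p under 0.05 there were 4 of the 5, namely F3, Plaur, Thbd and F2r, beside 25.6% of all genes. From this share too nothing is read, and F2r reached the filter level only through its control arrays.

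**Figure D1:**
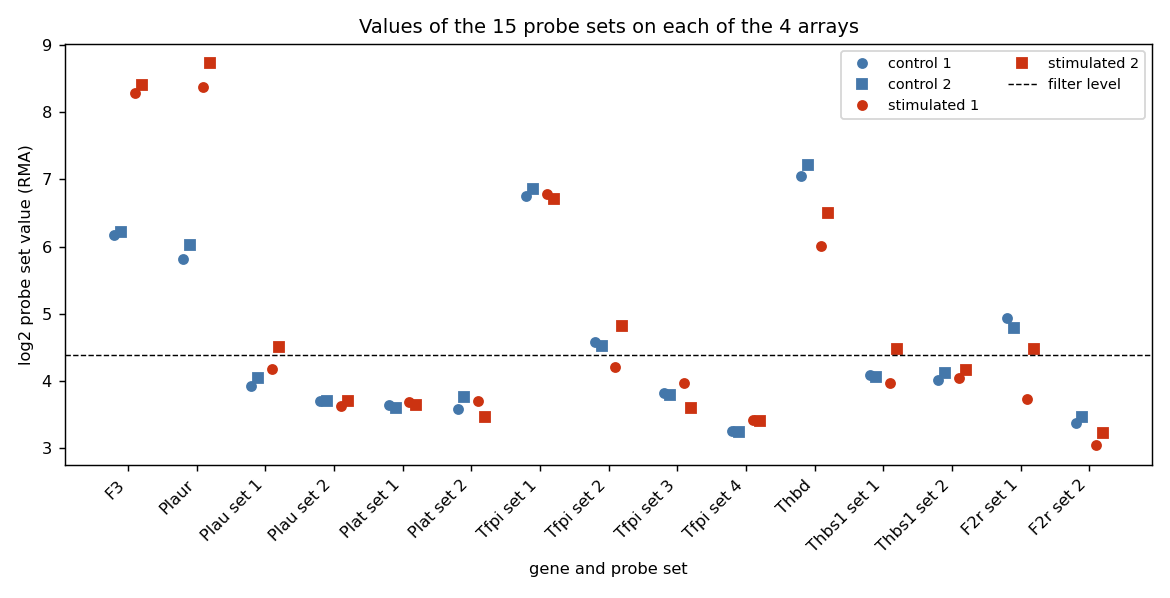
Log2 values (y axis) of the 15 probe sets (x axis, in order of brightness within a gene) on each array, with control arrays in blue, stimulated arrays in red, circles for sample 1, squares for sample 2 and a dashed line at the filter level of 4.39. The red points of F3 and Plaur, at 8.29 to 8.73, stand above their blue points at 5.82 to 6.22, while 9 probe sets have mean values under the line.

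F3, which encodes the initiator of coagulation, read 6.18 and 6.22 in controls 1 and 2 and 8.29 and 8.41 in stimulated samples 1 and 2 (probe set 1417408_at). Both stimulated arrays lay far above both controls, and the arrays within a group differed by only 0.04 and 0.11. The group levels were 6.20 ± 0.03 and 8.35 ± 0.08 (SD, n = 2), which is 2.15 ± 0.12 (SE) higher on the log2 scale with a 95% interval of 1.85 to 2.45. It was the 43rd largest rise of the 13050 genes. With any 1 of the arrays left out the rise lay between 2.10 and 2.21.

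Plaur, which encodes the receptor that gathers urokinase at the cell surface, read 5.82 and 6.02 in controls and 8.38 and 8.73 in stimulated samples (probe set 1452521_a_at). Again the groups were well apart. The levels were 5.92 ± 0.14 and 8.56 ± 0.25 (SD, n = 2), which is 2.64 ± 0.17 (SE) higher with a 95% interval of 2.23 to 3.04. This was the 24th largest rise, and the range with 1 array left out was 2.46 to 2.81. F3 and Plaur passed the gene test in each of these fits. When all 27000 probe sets past the level were tested instead, both passed, the 2 of 6 called higher beside 2.47% of all, with 0 called lower beside 1.38%. In that test neither passed without control 1 or without control 2, though their rises stayed at 2.13 and 2.53 without control 1 and 2.17 and 2.74 without control 2.

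**Figure D2:**
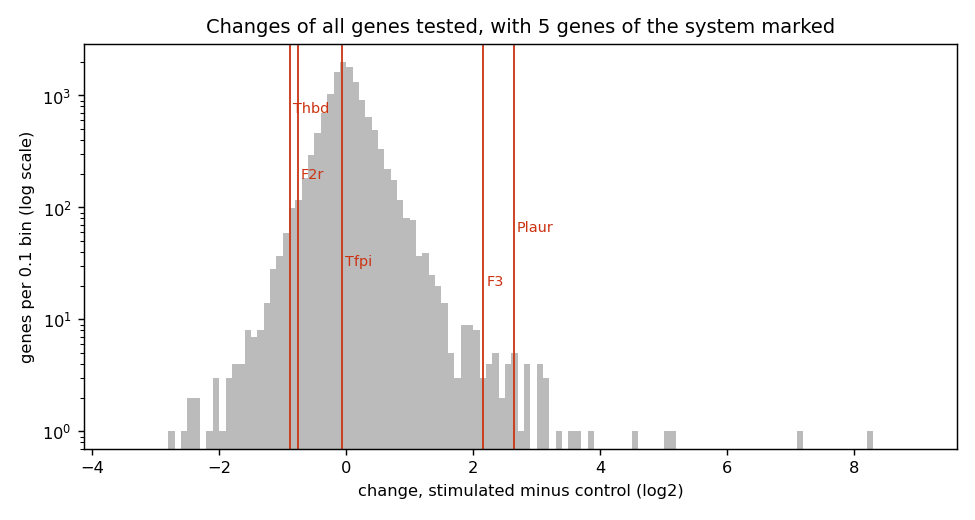
Number of genes (y axis, log scale) by change on the log2 scale, stimulated minus control (x axis, bins of 0.1), for all 13050 genes tested. Red lines mark 5 genes of the system: F3 at 2.15 and Plaur at 2.64 lie in the sparse right tail, Tfpi at -0.06 in the bulk, and Thbd at -0.88 and F2r at -0.76 on the left flank.

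Tfpi, the inhibitor of the tissue factor and factor VII complex, read 6.76 and 6.86 in controls and 6.78 and 6.71 in stimulated samples on its brightest probe set (1451790_a_at). The groups overlapped. The difference of -0.06 ± 0.12 (SE) had a 95% interval of -0.36 to 0.24, so a rise of the size seen for F3 lies outside it. A second Tfpi probe set past the level read 4.58 and 4.52 in controls and 4.20 and 4.82 in stimulated samples, and here too the groups overlapped. Its difference was -0.04, with a wider interval of -0.57 to 0.49. The other Tfpi probe sets, both below the level, differed by -0.02 and 0.17.

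Thbd, the thrombin-binding cofactor of protein C activation, read 7.05 and 7.22 in controls and 6.003 and 6.496 in stimulated samples (probe set 1448529_at). Both stimulated arrays were lower than both controls, and stimulated sample 1 was the lowest. The difference was -0.88 ± 0.19 (SE), with an interval of -1.35 to -0.42, a level 1.85-fold lower. It did not pass the test over all genes, but passed with the 60th percentile as filter, with the mean of all probe sets of each gene, and with the replicate number as a block. Without stimulated 1 the difference was -0.64 and without stimulated 2 it was -1.13, neither past the test. Because RNA of whole cultures was measured, fewer cells of a type and less RNA per cell cannot be told apart.

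F2r, which encodes the thrombin receptor PAR1, read 4.94 and 4.79 in controls and 3.74 and 4.48 in stimulated samples on its brighter probe set (1437308_s_at). The stimulated arrays were both lower but differed from each other by 0.74, more than the controls did (0.15). The difference of -0.76 ± 0.25 (SE) did not pass, with an interval of -1.37 to -0.15, and it was -0.39 without stimulated 1 and -1.13 without stimulated 2. The gene reached the filter level only through its control arrays, since the stimulated mean was 4.11. The dimmer F2r probe set read 3.38 and 3.46 in controls and 3.04 and 3.23 in stimulated samples, a difference of -0.28 in the same direction. Of the 5 genes tested, 4 had groups that did not overlap, beside 55.3% of all genes tested. Nothing is read from this share, as the choice of genes used this comparison.

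The plasminogen activators were near the bottom of the range. Plau, urokinase itself, read 3.93 and 4.05 in controls and 4.18 and 4.50 in stimulated samples on its brighter probe set, with the stimulated arrays on top. The difference was 0.35, and a fit of all probe sets without a filter gave an interval of -0.02 to 0.72. The other Plau probe set read 3.70 on both controls and on stimulated 2, and 3.62 on stimulated 1. Plat, tissue plasminogen activator, stayed between 3.47 and 3.76 on all arrays and both probe sets, with differences of 0.05 and -0.09. Thbs1, which encodes the secreted matrix protein thrombospondin 1, lay between 3.97 and 4.47 on its probe sets, with differences of 0.15 and 0.04.

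Of the 9 probe sets below the level, 4 had groups that did not overlap, beside 34.4% of all 18037 such probe sets. Their differences ran from -0.28 to 0.35. RMA compresses differences near the bottom of the range, so these values cannot show how strongly such a transcript changed. F2r at a mean of 4.49 was the gene just above the level of 4.39, and Plau at 4.17 the one just below it.

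Other genes of coagulation and plasminogen activation were taken from 7 lists, drawn up from general knowledge of the pathway. They held 72 genes, and 69 of them had a 1-symbol probe set and 40 were tested. By limma 0 of the 40 passed in either direction, beside 5.55% of all genes tested. At an unadjusted p under 0.05 there were 8 (20%), against 25.6% of all genes. Their median difference was -0.07, against -0.01 over all genes. Groups did not overlap in 19 of the 40 (47.5%), against 55.3%.

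Most plasma coagulation factors were below the level: only F2, F8 and F12 of 16 were tested, with differences of 0.04, -0.09 and -0.0015. F7, the partner of tissue factor, read 3.74 and 4.07 in controls and 4.02 and 3.83 in stimulated samples, under the level on all arrays. Plg, which encodes plasminogen, was also below it at 3.54 to 3.95. Of the inhibitors and protein C genes, 4 of 10 were tested, and Anxa5, a phosphatidylserine-binding protein, changed by -0.25 ± 0.14 (SE, limma adjusted p = 0.334) and Proc by -0.07. Procr, the endothelial protein C receptor, had a mean below the level, with arrays at 3.97 to 4.62.

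Among the vitamin K genes Ggcx, the carboxylase that finishes several clotting factors, changed by -0.45 ± 0.16 (limma adjusted p = 0.148) and Vkorc1 by -0.25. Of the thrombin receptors, F2rl2 changed by -0.12, F2rl3 lay below the level, and F2rl1 had no 1-symbol probe set. The G protein genes Gnaq and Gna13, through which PAR1 signals, changed by -0.32 ± 0.12 (limma adjusted p = 0.172) and 0.39 ± 0.17 (limma adjusted p = 0.228). The 6 other Gna13 probe sets differed by -0.22 to 0.51.

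In the plasminogen list, Anxa2, a cell-surface binding partner of tissue plasminogen activator and plasminogen, read 10.87 and 11.68 in controls and 10.47 and 10.79 in stimulated samples. The groups stood apart, but the controls themselves differed by more than the gap, and the difference of -0.65 ± 0.28 did not pass (limma adjusted p = 0.218). Serpinb6a, an intracellular protease inhibitor, changed by 0.29 ± 0.16 and Plgrkt, a plasminogen receptor, by -0.19.

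The adhesion and clearance partners of the urokinase receptor held the pathway genes closest to the threshold. St14, a membrane protease, read 5.36 and 5.10 in controls and 5.88 and 5.89 in stimulated samples, a difference of 0.65 ± 0.14 (limma adjusted p = 0.0541). Igf2r, a receptor that binds the urokinase receptor and plasminogen, read 10.78 and 10.94 against 10.14 and 10.32, a difference of -0.63 ± 0.14 (limma adjusted p = 0.0563). Another Igf2r probe set differed by only -0.34. Itgb3, the integrin chain of the vitronectin receptor, read 9.20 and 9.36 against 7.95 and 8.70, a difference of -0.96 ± 0.25 (limma adjusted p = 0.081), with -0.71 on another probe set. Its partner Itgav changed by -0.03, with -0.41 and -0.39 on other probe sets. In the thrombospondin family, Thbs3 changed by 0.42 ± 0.12 (limma adjusted p = 0.106) and Thbs4 by -0.56 ± 0.22 (limma adjusted p = 0.182).

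**Figure D3:**
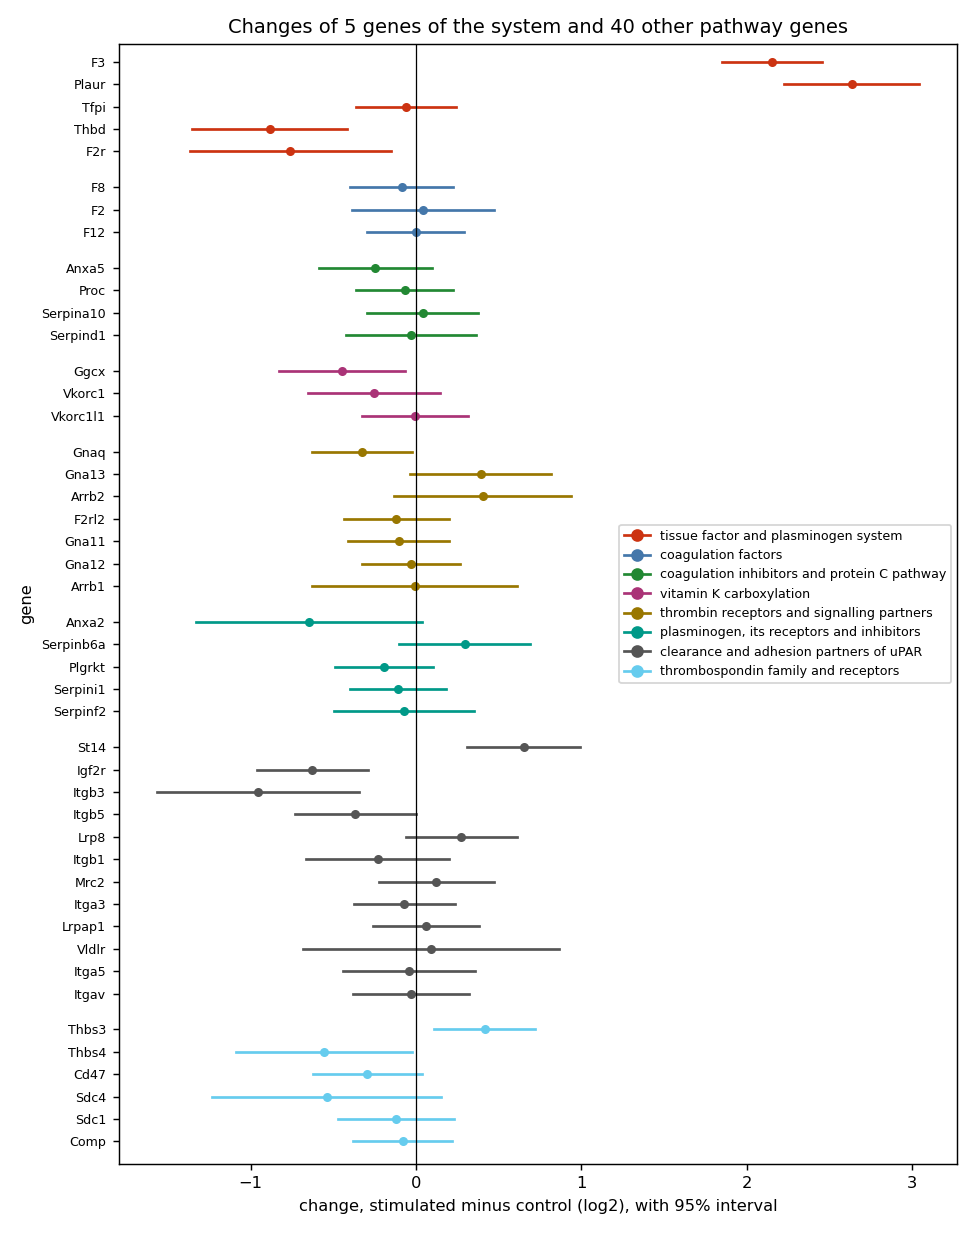
Change on the log2 scale, stimulated minus control (x axis), with the 95% interval of the fit for 5 genes of the system (top, red) and 40 other pathway genes (y axis, coloured by list). The intervals of F3 and Plaur begin at 1.85 and 2.23. The changes of the other genes shown lie between -0.96 and 0.65, and their intervals reach further, as to 0.99 for St14.

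Several of these genes are also expressed by endothelium, leukocytes and platelets, so markers of those cells were read on the same arrays. Of all genes tested, 5.55% were called and 25.6% had an unadjusted limma p under 0.05. Endothelial markers: 6 of 12 were tested and 0 passed in limma (1 at an unadjusted p under 0.05, 16.7%). Their summed unlogged level was 334 to 336 in controls and 324 to 344 in stimulated samples. Pecam1, Cdh5, Tek, Tie1, Vwf and Emcn were below the level. Platelet markers summed to 334 to 351 and 336 to 370, with 4 of 8 tested and 0 called (1 at an unadjusted p under 0.05), and Pf4 and Ppbp were below the level.

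Leukocyte markers summed to 265 to 376 in controls and 425 to 481 in stimulated samples, with 5 of 10 tested. Of these 1 was called higher and 0 lower, beside 3.91% and 1.64% of all genes. This was Cd68, which encodes a lysosomal protein used as a macrophage marker. It rose by 2.08 ± 0.23 (limma adjusted p = 0.0186), from 4.07 and 4.70 to 6.34 and 6.59. Its control mean of 4.386 lay under the filter level of 4.391, so Cd68 was tested only through its stimulated arrays. The pan-leukocyte marker Ptprc and the myeloid markers Itgam, Tyrobp and Cd14 were below the level on the mean of the 4 arrays, and their differences ran from -0.06 to 0.06. Csf1r read 5.79 and 7.19 in controls and 7.17 and 7.59 in stimulated samples, so its groups overlapped (limma adjusted p = 0.272), and its other probe sets differed by 0.30 and 0.09. The macrophage and myeloid markers Adgre1 and Lyz2 differed by -0.32 and -0.07 and Cd3e, a T cell marker, by 0.07, with none of them called. Fibroblast markers summed to 190 to 339 and 181 to 278 (5 of 8 tested, 0 called, 0 at an unadjusted p under 0.05 in limma). Among them Col1a1 differed far more within the groups than between them. It read 5.51 and 7.55 in controls 1 and 2 and 5.49 and 7.14 in stimulated samples 1 and 2. Another Col1a1 probe set read 5.39 and 6.78 in controls and 5.18 and 6.19 in stimulated samples. Smooth muscle markers summed to 18154 to 21637 and 21609 to 25842. Of these 4 of 6 were tested, 0 were called and 2 had an unadjusted limma p under 0.05 (50%, against 25.6% of all genes). Those were Des and Tagln, with differences of 0.75 and 0.90, beside 0.30 for Cnn1 and -0.06 for Acta2. A dimmer Des probe set differed by -0.10. The 4 tested genes were bright in the controls, with means from 10.4 (Des) to 13.7 (Acta2). Whether the myocytes themselves or another cell type made these transcripts was not tested. Any part that endothelial, leukocyte, platelet, fibroblast or smooth muscle cells had in the values of F3 and Plaur was not tested either.

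For each gene called, the other tested genes with the most similar profile were found by Euclidean distance over the 4 arrays, after subtraction of each gene's mean. Closest to F3 were Dntt at 0.20, Cth at 0.20 and Mmp13 at 0.25, with differences of 2.25, 2.03 and 1.94. Closest to Plaur were Ppp1r15a at 0.22, Gadd45b at 0.25 and Car6 at 0.29, with differences of 2.55, 2.48 and 2.55. With 4 arrays in 2 groups, such a distance mostly finds genes of a similar change.

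**Figure D4:**
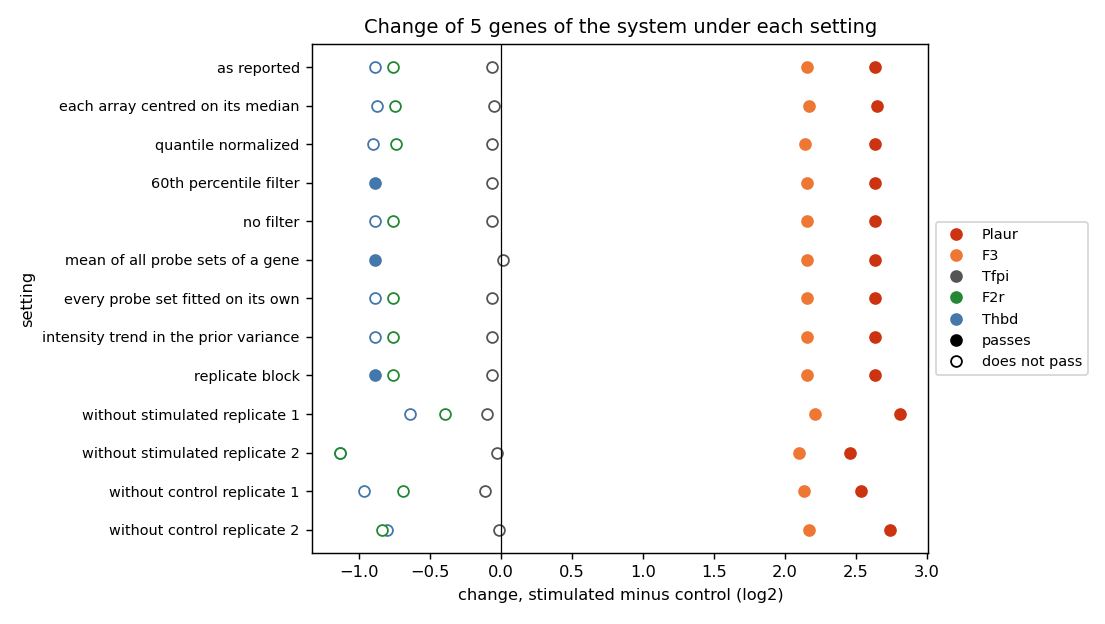
Change on the log2 scale, stimulated minus control (x axis), of 5 genes of the system under each processing setting or left-out array (y axis), with filled points where the gene passed an adjusted p of 0.05 and open points where it did not. The adjustment was over all genes, except that the fit of every probe set on its own was adjusted over all probe sets past the level. F3 stays between 2.10 and 2.21 and Plaur between 2.46 and 2.81 with filled points, while Thbd is filled in 3 of the settings. F2r is not shown with the 60th percentile filter or the mean of all probe sets, where it was not tested.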

How the data were processed

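Biotin-labelled cRNA from 4 HL-1 samples was measured on Affymetrix arrays, 1 a sample. Per the submitters' processing notes, the deposited log2 values were made with RMA, which corrects background, quantile normalizes and summarises probe sets. Its version and settings are not given in the sources used here. Scanner files were not used here. Of 45101 probe sets, 64 were manufacturer's controls, 34945 had 1 symbol, 932 several and 9160 none. The comparison of 2 stimulated with 2 control arrays used limma 3.58.1 (R 4.3.3, lmFit, eBayes, two-sided, Benjamini-Hochberg over 13050 genes, threshold 0.05). The script was tested on simulated data. An exact permutation test of 2 against 2 cannot go below p = 0.333 and was not used. The genes and lists were chosen with earlier results of these data known. Named pathway genes are those with the 2 lowest p in a list, and others singled out for their role after their values were seen. A listed gene is not reported here. Alternatives were array centring, quantile normalization, the 60th percentile or no filter, other uses of probe sets, a variance trend, the replicate block and each array left out.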

Additional observations from a re-analysis of the deposited data

How the results depend on the processing

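F3 and Plaur kept their direction in all 12 alternatives. With no array left out they passed in each, with limma adjusted p of 0.00196 to 0.0056 and 0.00263 to 0.0065. The highest values came from the fit of every probe set on its own, adjusted over 27000 probe sets and not over genes. Thbd kept its direction in all 12 and passed in 3 (adjusted p = 0.0424 with the 60th percentile filter, 0.0496 with the mean of all probe sets, 0.0276 with the replicate block), and the others reached 0.252. F2r kept its direction in all 10 in which it was tested and passed in 0. Tfpi changed sign to 0.011 with the mean of all probe sets. The replicate block called 1346 genes in place of 724, and the same-numbered samples deviated together (r = 0.33 across genes), but the numbering of the controls was partly assigned: their titles carry no number, 1 control is called sample 2 in a protocol text, and the other was numbered by accession order. These block values therefore rest on an assumed pairing. With 1 array left out, 20 to 113 genes were called, and 0 to 2 probe sets of the system in the test of all probe sets, where F3 and Plaur had adjusted p of 0.0631 to 0.0789 without either control (3 of the 6 probe sets at an unadjusted p under 0.05 in limma each time). Of the pathway genes, 0 were called as reported, 2 after quantile normalization (Igf2r and St14), 1 with the 60th percentile filter or a variance trend (Igf2r), 1 with the mean of all probe sets (St14) and 4 with the replicate block (Igf2r, Itgb3, Sdc4 and St14). Signal near background limits what can be said of Plau, Plat, Thbs1 and F2r.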
